A study of Homo sapiens with 6 samples.

Results

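The proteasome is the protease that degrades most ubiquitin-tagged proteins in the cytosol and nucleus. Its 20S core is a barrel whose outer rings are made of alpha subunits, which form the gate, and whose inner rings are made of beta subunits, some of which carry the proteolytic sites. The 19S cap binds ubiquitin chains, removes them, and unfolds the substrate with a ring of ATPases. Alternative activators can take the place of the cap, and assembly chaperones help to build the core and the base of the cap without staying in the finished particle. In human cells, many subunit genes are known to be induced together by the transcription factor NFE2L1 when proteasome activity is limiting.

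The genes described here are the 46 protein-coding genes, of 58735 in the deposited gene table, whose symbol is PSM followed by a letter from A to G and a number. A pair of inducible 20S beta genes was left out by this rule and is not analysed here. The members comprised 8 alpha genes of the 20S core, 9 beta genes, 6 ATPase genes of the 19S cap, 14 non-ATPase genes of the cap, 4 activator genes, 1 inhibitor gene and 4 chaperone genes of core assembly. The non-ATPase genes include 3 chaperones of cap assembly, PSMD5, PSMD9 and PSMD10.

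RNA was sequenced from TPC1, an established line of papillary thyroid cancer cells, in 6 libraries. Cells of 3 libraries had been transfected for 60 h with the siRNA si-circ_0000839, which was made to silence the circular RNA hsa_circ_0000839, and cells of the other 3 with a negative-control siRNA (NC). The study asked which genes respond when this circular RNA is silenced; the RNA itself was not measured in the gene table, so its depletion was not checked here. Whether libraries of 1 group were separate cultures is not in the labels, and each p-value therefore measures the spread between these libraries only.

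Libraries held 18399558 to 19334633 reads assigned to genes and 20533 to 21088 genes above 0. Levels are FPKM, in which fragments are divided by gene length and by a total per library that was not the recovered read total. A log2 change is the difference in mean log2(FPKM + 1), si-circ_0000839 minus NC, and understates the change of genes of low level. The thyroid factor PAX8 stood at 96.3 ± 5.26 FPKM after si-circ_0000839 and 95.8 ± 2.21 in NC (SD, n = 3 each), whereas the thyroid markers NKX2-1, TSHR and SLC5A5 were at 0 in every library. Of the epithelial markers CDH1 was at 0 and EPCAM averaged 0.838 FPKM over the 6 libraries, whereas KRT8 and KRT18 averaged 199 and 108 FPKM. The summed level of these 4 markers, nearly all from the keratins, was 283 to 310 FPKM after si-circ_0000839 and 303 to 365 in NC. The leukocyte markers PTPRC and CD3E were also at 0, and the summed leukocyte list reached at most 0.0232 FPKM after si-circ_0000839 and 0.0480 in NC. The fibroblast list summed to 0.673 to 0.886 FPKM after si-circ_0000839 and 0.441 to 0.564 in NC, and the endothelial list to 0.0262 to 0.0952 FPKM after si-circ_0000839 and 0.0550 to 0.132 in NC. As these are bulk samples of a cell line, fewer cells that express a marker and less of its RNA per cell cannot be told apart.

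Proteasome promoters share several short motifs, and the best known is the antioxidant response core TGACNNNGC, which NFE2L1 and its relative NFE2L2 bind together with small MAF proteins. Promoter windows of 300 bases, 250 before and 50 after the RefSeq start on GRCh38.p14, were found for 40 of the 46 members. Those of PSMD5, PSMB3, PSMD12 and PSME4 are shown because they hold this core wholly before the start. PSMD5 stands for a cap assembly chaperone and PSMB3 for the most abundant beta gene by deposited FPKM. PSMD12 stands for a cap scaffold gene and PSME4 for the least abundant activator gene. The 100 bases are given 5′ to 3′ along the gene's strand, with the match to the core, or its reverse complement in PSME4, in capitals.
PSMD5, chr9:120843002-120843101, minus strand: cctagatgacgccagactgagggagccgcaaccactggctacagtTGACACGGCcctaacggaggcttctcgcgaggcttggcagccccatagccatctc
PSMB3, chr17:38752592-38752691, plus strand: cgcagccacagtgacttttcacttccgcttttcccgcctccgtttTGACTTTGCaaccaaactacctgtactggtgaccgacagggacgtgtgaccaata
PSMD12, chr17:67366688-67366787, minus strand: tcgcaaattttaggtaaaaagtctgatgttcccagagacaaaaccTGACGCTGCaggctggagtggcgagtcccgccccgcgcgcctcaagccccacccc
PSME4, chr2:53970994-53971093, minus strand: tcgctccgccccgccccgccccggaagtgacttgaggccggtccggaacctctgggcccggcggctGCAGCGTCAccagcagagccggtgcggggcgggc

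On either strand, the core TGACNNNGC was present in 14 of 40 member promoters (35.0%) and in 16.1% of the promoters of 27305 genes. The ETS-type motif CGGAAG was found in 24 member promoters (60.0%), against 22.6% of all promoters, and the GC-box core GGCGGG in 28 (70.0%), against 48.3%. CCAAT was found in 19 (47.5%, against 39.7%), and the AP-1 site TGAGTCA in 3 (7.50%, against 6.05%). The reverse complement of the last can lie inside a match to the first, and matches of different motifs were counted separately. A match is a run of letters, and binding was not measured. The 27305 genes were not limited to expressed genes, so these shares do not set the members against expressed genes alone. The 14 tested genes with the TGACNNNGC core had a median log2 change of -0.02, and the 22 tested genes without it 0.02.

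After si-circ_0000839 the tested proteasome genes stood close to their NC levels, by at most 0.30 on the log2 scale. Of the 46 members, 42 reached the minimum mean of 1 FPKM over the 6 libraries and were tested with limma over all 10674 genes above it. At an adjusted p under 0.05, 0 of the 42 were called, where 0.384% of all tested genes were called (41 genes, 14 higher and 27 lower). At an unadjusted p under 0.05 there was 1 member, PSMD5, against 12.6% of all tested genes. The log2 change was above 0 for 22 members and below 0 for 20, and its median was 0.0047, beside 0.0057 over all tested genes. The median size of the change, without its sign, was 0.06 for the members and 0.08 for all tested genes.

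Groups did not overlap for 4 of the 42 members (9.52%), beside 18.1% of all tested genes. PSMA7, PSMD11 and PSMF1 were higher in every si-circ_0000839 library than in any NC library, and 10.6% of all tested genes were separated in that direction. PSMD5 was lower in every si-circ_0000839 library, as were 7.55% of all tested genes. The 95% interval of the change lay within 1.2-fold in either direction for 29 of the 42 members and within 1.5-fold for all 42. Its half-width was 0.14 to 0.26 on the log2 scale, with a median of 0.17.

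**Figure D1:**
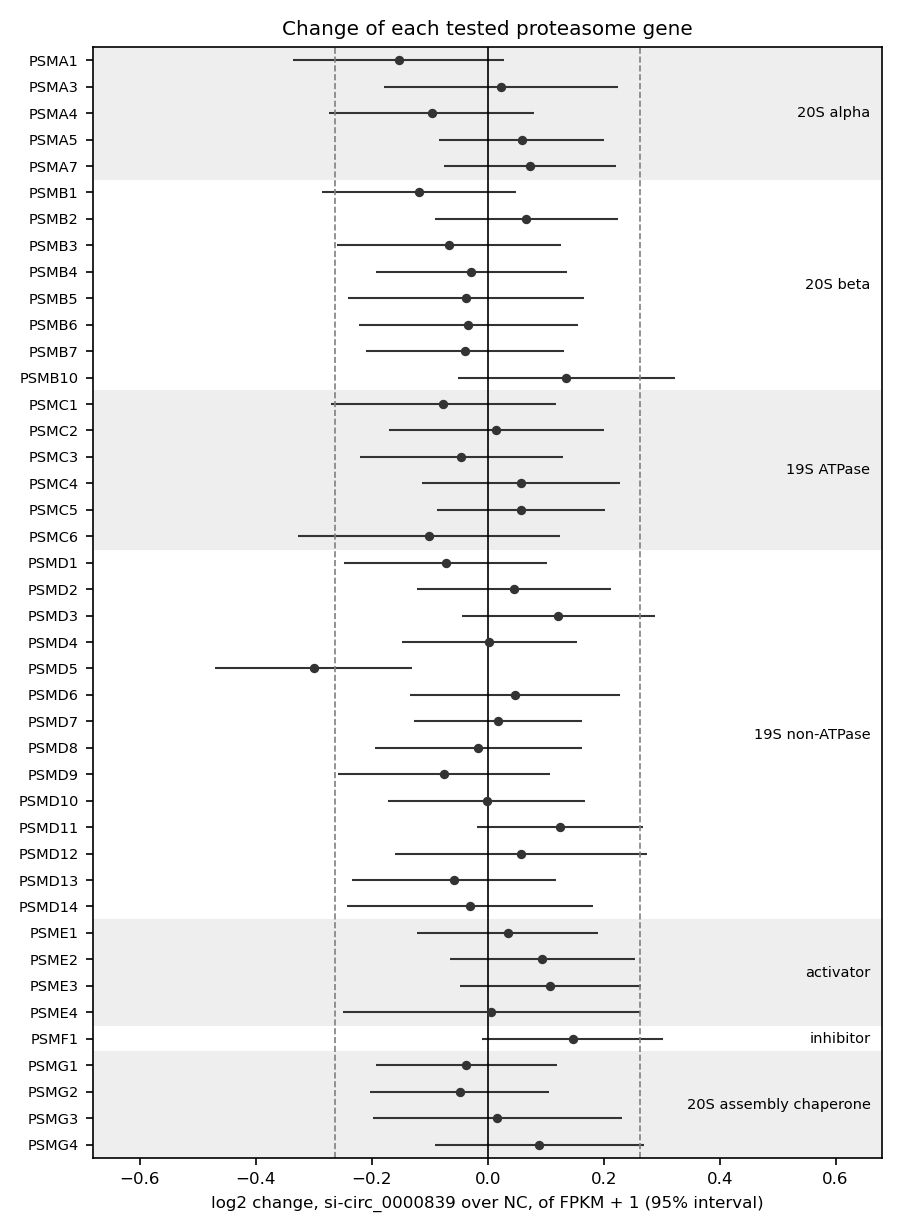
Log2 change of FPKM + 1 (horizontal axis), si-circ_0000839 over NC, for the 42 tested proteasome genes (rows, by role); points are limma estimates, bars 95% intervals and dashed lines a 1.2-fold change. The interval of PSMD5, from -0.47 to -0.13, is the single one that leaves out 0, and all others cross it.

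Summed over all members, the level was 2675, 2606 and 2648 FPKM after si-circ_0000839, against 2537, 2833 and 2539 FPKM in NC. The NC libraries spread more widely, and the si-circ_0000839 libraries lay inside their range. The members took 0.789% to 0.812% of the reads of a library. The ratio of the 19S sum to the 20S sum was 0.794 ± 0.0101 after si-circ_0000839 and 0.780 ± 0.0174 in NC (SD, n = 3 each). By library it was 0.800, 0.783 and 0.800 after si-circ_0000839, against 0.793, 0.760 and 0.787 in NC, so the groups overlapped. The 19S sum holds the ATPase and non-ATPase members, with the chaperones of cap assembly. Cap subunits without a PSM symbol, such as ADRM1, are not in it.

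The alpha genes of the core, whose products gate the entry of substrates, summed to 349 ± 4.62 FPKM after si-circ_0000839 and 335 ± 10.6 in NC (SD, n = 3 each). Most of this was PSMA7, which read 281, 283 and 280 FPKM after si-circ_0000839, against 257, 273 and 272 FPKM in NC. The groups did not overlap, but the shift was small, with a log2 change of 0.07 (SE 0.07, limma adjusted p = 0.706). PSMA1 stood at 5.07, 6.02 and 5.22 FPKM after si-circ_0000839, against 5.89, 5.999 and 6.57 FPKM in NC, with overlapping groups (log2 change -0.15, limma adjusted p = 0.480). PSMA4 was at 12.6, 13.8 and 15.2 FPKM after si-circ_0000839, against 14.1, 15.4 and 14.9 FPKM in NC, also with overlap (log2 change -0.10). PSMA3 and PSMA5 had log2 changes of 0.02 and 0.06.

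The remaining alpha genes were under the minimum level and were not tested. PSMA2 read 0.460, 0.562 and 0.611 FPKM after si-circ_0000839, against 0.667, 0.536 and 0.620 FPKM in NC, on a mean of 58.0 reads per library. PSMA6 read 0.645, 0.656 and 0.793 FPKM after si-circ_0000839, against 0.737, 0.676 and 0.759 FPKM in NC, on a mean of 87.2 reads. In both the groups overlapped. PSMA8, the alpha subunit of the testis proteasome, had 0 reads in all 6 libraries, and 3 reads, the limit that a count of 0 allows, would correspond to at most 0.0871 FPKM; this limit covers counting error only.

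**Figure D2:**
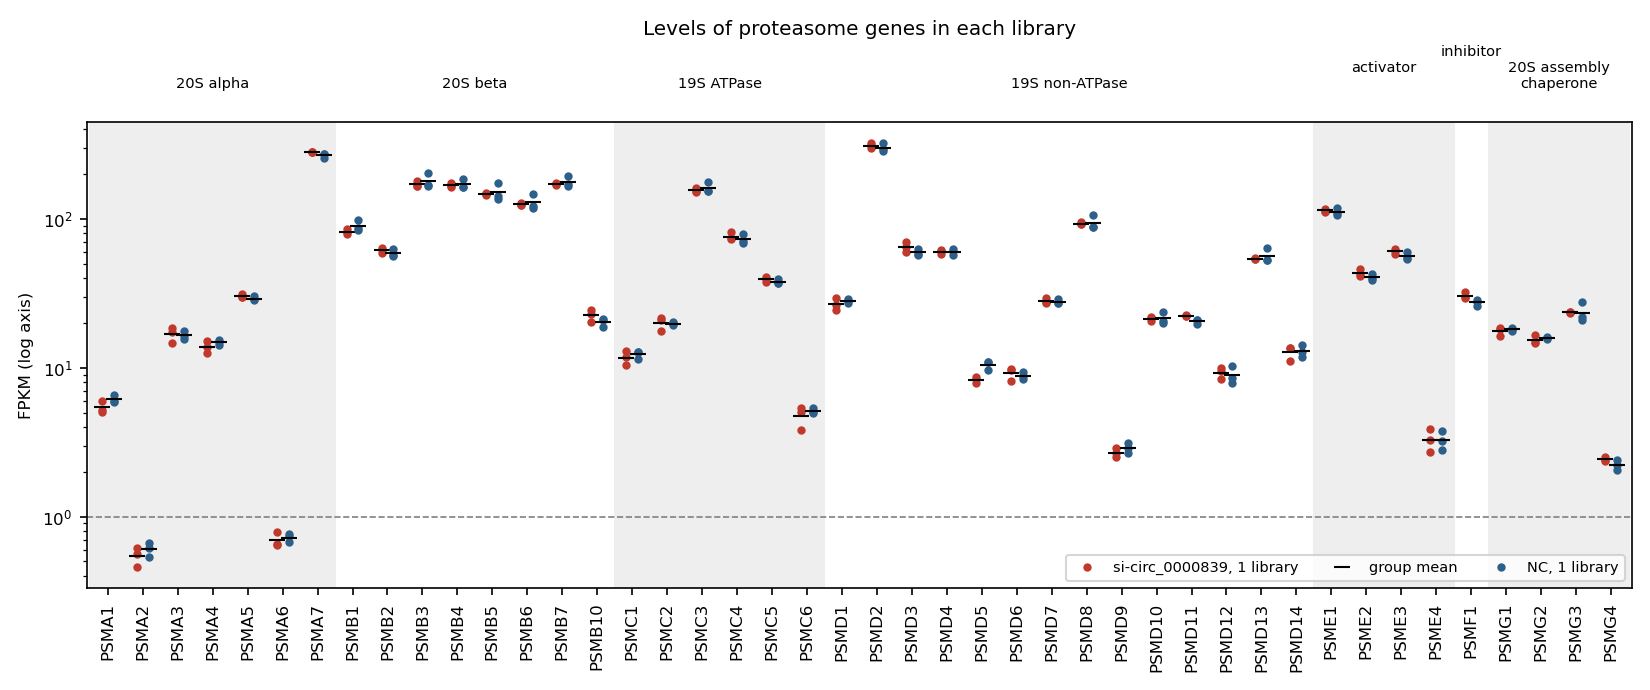
FPKM (log axis) of the 44 proteasome genes above 0, by role; each point is 1 library, si-circ_0000839 left of NC within each gene, black bars are group means and the dashed line is the 1 FPKM minimum for testing. Levels differ far more between genes than between groups; PSMA8 and PSMB11 are at 0 and not drawn.

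The beta genes summed to 968, 935 and 949 FPKM after si-circ_0000839, against 931, 1087 and 918 FPKM in NC. NC replicate 2 stood above all other libraries, and the si-circ_0000839 libraries lay between it and the other NC libraries. PSMB5, PSMB6 and PSMB7 encode the constitutive catalytic subunits with chymotrypsin-like, caspase-like and trypsin-like activity. PSMB5 read 149, 147 and 145 FPKM after si-circ_0000839, against 144, 175 and 137 FPKM in NC (log2 change -0.04). PSMB6 read 124.6, 124.8 and 128 FPKM after si-circ_0000839, against 122, 147 and 119 FPKM in NC (log2 change -0.03). PSMB7 read 173, 169 and 174 FPKM after si-circ_0000839, against 171, 194 and 166 FPKM in NC (log2 change -0.04). In each the groups overlapped, and NC replicate 2 was the highest library.

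PSMB10, the inducible subunit that takes the place of the PSMB7 product in immunoproteasomes, read 24.4, 20.2 and 22.9 FPKM after si-circ_0000839, against 18.8, 21.4 and 20.9 FPKM in NC. The groups overlapped (log2 change 0.14, SE 0.08, limma adjusted p = 0.558). Its level was 0.131 ± 0.0106 times that of PSMB7 after si-circ_0000839 and 0.116 ± 0.00954 times in NC (SD, n = 3 each), and these ranges overlapped too. The structural subunit gene PSMB1 was at 79.6, 82.1 and 85.3 FPKM after si-circ_0000839, against 84.4, 97.8 and 86.5 FPKM in NC, overlapping by 1 library (log2 change -0.12, limma adjusted p = 0.564). PSMB3 was at 180, 167 and 167 FPKM after si-circ_0000839, against 169, 203 and 167 FPKM in NC (log2 change -0.07). By deposited FPKM it was the most abundant beta gene, though within the spread of PSMB7. Rescaled to principal transcript length, PSMB4 and PSMB7 averaged 380 and 318 FPKM over the 6 libraries, above PSMB3 at 268. Rescaling divides all reads of a gene, also those outside the principal transcript, by the length of that transcript. It can therefore overstate a level. PSMB2 and PSMB4 had log2 changes of 0.07 and -0.03. PSMB11, the thymus-specific beta subunit gene, had 0 reads in all libraries, which allows up to 0.0782 FPKM.

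Among the ATPase genes of the cap, 3 had log2 changes above 0 and 3 below, between -0.10 and 0.06, and in all 6 the groups overlapped. PSMC3, the most abundant, read 162, 151 and 155 FPKM after si-circ_0000839, against 153, 178 and 153 FPKM in NC. PSMC6, the least abundant by deposited FPKM, read 3.84, 5.36 and 5.01 FPKM after si-circ_0000839, against 4.95, 5.02 and 5.36 FPKM in NC. Rescaled to principal transcript length, PSMC6 averaged 16.8 FPKM over the 6 libraries, beside 16.7 for PSMC1. The log2 change of PSMC6 was -0.10 (SE 0.10, limma adjusted p = 0.737), and its lowest library, si-circ_0000839 replicate 1, stood apart from the others. The 6 ATPases form 1 ring with 1 copy of each, yet their mean levels spanned a 32.2-fold range.

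Of the 14 non-ATPase genes of the cap, 7 had log2 changes above 0 and 7 below. PSMD5 encodes a chaperone that holds ATPase subunits during assembly of the base. It read 7.86, 8.66 and 8.45 FPKM after si-circ_0000839, against 10.9, 9.61 and 10.9 FPKM in NC. Every si-circ_0000839 library lay under every NC library. The log2 change was -0.30 (SE 0.08, limma adjusted p = 0.147), the largest in size among the 42 members, and it did not pass the threshold. It rested on 639 to 939 reads per library. PSMD5 (ENSG00000095261, chromosome 9, 120815496 to 120842984, minus strand, GRCh38) shared no exonic bases with another gene in GENCODE 29. Over 21 alternative settings its log2 change ran from -0.36 to -0.26 and its limma adjusted p from 0.00287 to 0.418. It passed in 2 of them, with weights for library quality (adjusted p = 0.00287) and with fitted GC and length trends subtracted library by library (adjusted p = 0.0290). These settings called 15.2% and 1.86% of all tested genes.

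In the other chaperones of cap assembly the groups overlapped. PSMD9, the least abundant non-ATPase gene, read 2.51, 2.88 and 2.69 FPKM after si-circ_0000839, against 2.89, 3.11 and 2.68 FPKM in NC (log2 change -0.08). PSMD10, also known as gankyrin, had a log2 change of -0.0020. PSMD11, a scaffold subunit that joins cap and core, read 22.6, 22.3 and 22.3 FPKM after si-circ_0000839, against 20.8, 21.0 and 19.6 FPKM in NC. Its groups did not overlap, but the change was small (log2 change 0.13, SE 0.06, limma adjusted p = 0.464). The scaffold subunit gene PSMD3 was at 69.6, 60.4 and 64.9 FPKM after si-circ_0000839, against 58.3, 63.0 and 57.4 FPKM in NC, with overlap (log2 change 0.12, limma adjusted p = 0.552). PSMD2, a docking subunit for ubiquitin-like domains, was the most abundant of all members by deposited FPKM. It read 321, 299 and 312 FPKM after si-circ_0000839, against 296, 323 and 285 FPKM in NC (log2 change 0.05). Rescaled to principal transcript length, PSMD2 averaged 484 FPKM over the 6 libraries, beside 482 for PSMA7. The remaining 8 genes, among them the ubiquitin receptor PSMD4 and the deubiquitinase PSMD14, had log2 changes of -0.07 to 0.06.

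All 4 activator genes had log2 changes above 0, between 0.01 and 0.11, and in all 4 the groups overlapped. PSME1, which forms the 11S cap with PSME2, read 117, 114 and 112 FPKM after si-circ_0000839, against 106, 119 and 109 FPKM in NC (log2 change 0.03). PSME3, the nuclear activator, read 62.8, 58.2 and 60.7 FPKM after si-circ_0000839, against 54.7, 59.9 and 53.9 FPKM in NC (log2 change 0.11, SE 0.07, limma adjusted p = 0.572). PSME4, a large single-chain activator, read 2.72, 3.88 and 3.26 FPKM after si-circ_0000839, against 3.24, 2.78 and 3.76 FPKM in NC (log2 change 0.01). The ratio of PSME3 to PSME1 was 0.531 ± 0.0172 after si-circ_0000839 and 0.504 ± 0.0111 in NC (SD, n = 3 each), with overlapping groups. This ratio uses the deposited gene lengths. Rescaled to the length of the principal transcript, PSME3 averaged 301 FPKM over the 6 libraries and PSME1 200. The deposited length of PSME3 is 5.16 times that of its principal transcript, and reads outside that transcript stay in the rescaled value. Which of them is higher thus depends on the length used. With library quality weights PSME2 and PSME3 were called higher (limma adjusted p = 0.0239 and 0.0426), and in the other 20 alternatives they were not. That setting called 15.2% of all tested genes, beside 3 of the 42 members.

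PSMF1 encodes a proteasome-binding protein first described as an inhibitor of the core. It read 32.3, 29.4 and 29.9 FPKM after si-circ_0000839, against 27.8, 28.6 and 26.0 FPKM in NC. The groups did not overlap, and the log2 change of 0.15 (SE 0.07, limma adjusted p = 0.428) was the largest above 0 among the members. The PSMG genes encode chaperones that assemble the alpha ring. PSMG3 read 23.2, 23.8 and 23.6 FPKM after si-circ_0000839, against 20.8, 27.6 and 21.9 FPKM in NC, where replicate 2 was again high (log2 change 0.02). PSMG4 read 2.497, 2.41 and 2.36 FPKM after si-circ_0000839, against 2.04, 2.21 and 2.41 FPKM in NC, with overlap (log2 change 0.09, limma adjusted p = 0.706). PSMG1 and PSMG2 had log2 changes of -0.04 and -0.05.

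**Figure D3:**
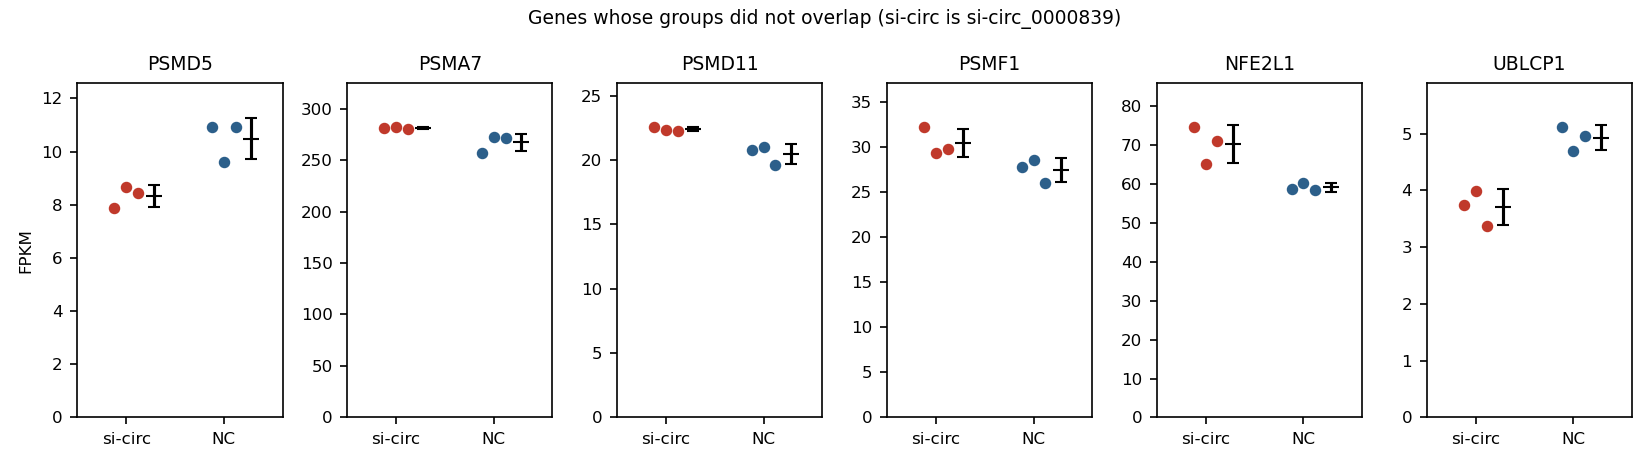
FPKM (vertical axes, from 0) of the 4 proteasome genes whose groups did not overlap, and of the regulators NFE2L1 and UBLCP1; colored points are libraries, and black marks are means with SD (n = 3). PSMD5 and UBLCP1 are lower after si-circ_0000839, the other 4 higher, and the limma adjusted p of these 6 genes runs from 0.117 to 0.706.

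Single libraries moved blocks of members together. In NC replicate 2 the 8 tested beta genes had a median deviation of 0.17 (log2) from their own means over the 6 libraries, and in the other 5 libraries between -0.07 and 0.02. NC replicate 2 was the highest library for 15 of the 42 members, 6 of them beta genes. The library si-circ_0000839 replicate 1 was the lowest for 14 members and the highest for 8, with a median of -0.16 over the 5 tested alpha genes. NC replicate 3 was the lowest for 13 members. Over all 42 members, the median deviation was -0.01, 0.01 and 0.02 in the si-circ_0000839 libraries, against -0.05, 0.03 and -0.04 in the NC libraries. The total by which the deposited values were scaled was 0.958 to 1.02 times the recovered reads, lowest in NC replicate 2 and next in si-circ_0000839 replicate 1 (0.971). Scaled to the recovered reads, the median deviation of the beta genes was 0.11 in NC replicate 2 and -0.03 to -0.01 in the other 5 libraries, and that of the alpha genes was -0.19 in si-circ_0000839 replicate 1.

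These deviations varied with the GC content and the length of the genes. Across the 42 members, the GC content of the principal transcript, 36.8% to 60.1%, had a Spearman correlation with the deviation of 0.63, -0.43 and -0.16 in the si-circ_0000839 libraries, against -0.61, 0.51 and -0.54 in the NC libraries. With gene length the correlation was -0.27, 0.45 and 0.34 in the si-circ_0000839 libraries, against 0.36, -0.55 and 0.23 in the NC libraries. In size it was above the GC value in si-circ_0000839 replicates 2 and 3 and in NC replicate 2, and below it in the other 3 libraries. These are correlations across genes of 1 library, and the genes share that library, so they are descriptions. In si-circ_0000839 replicate 1 the 21 members above the median GC content had a median deviation of 0.03 and the other 21 of -0.12. In NC replicate 2 these medians were 0.08 and -0.02. GC content and the log2 change between groups had a Spearman correlation of 0.26 across the same 42 genes. The parts of GC content and length in the levels were not tested beyond the fits with these trends removed.

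**Figure D4:**
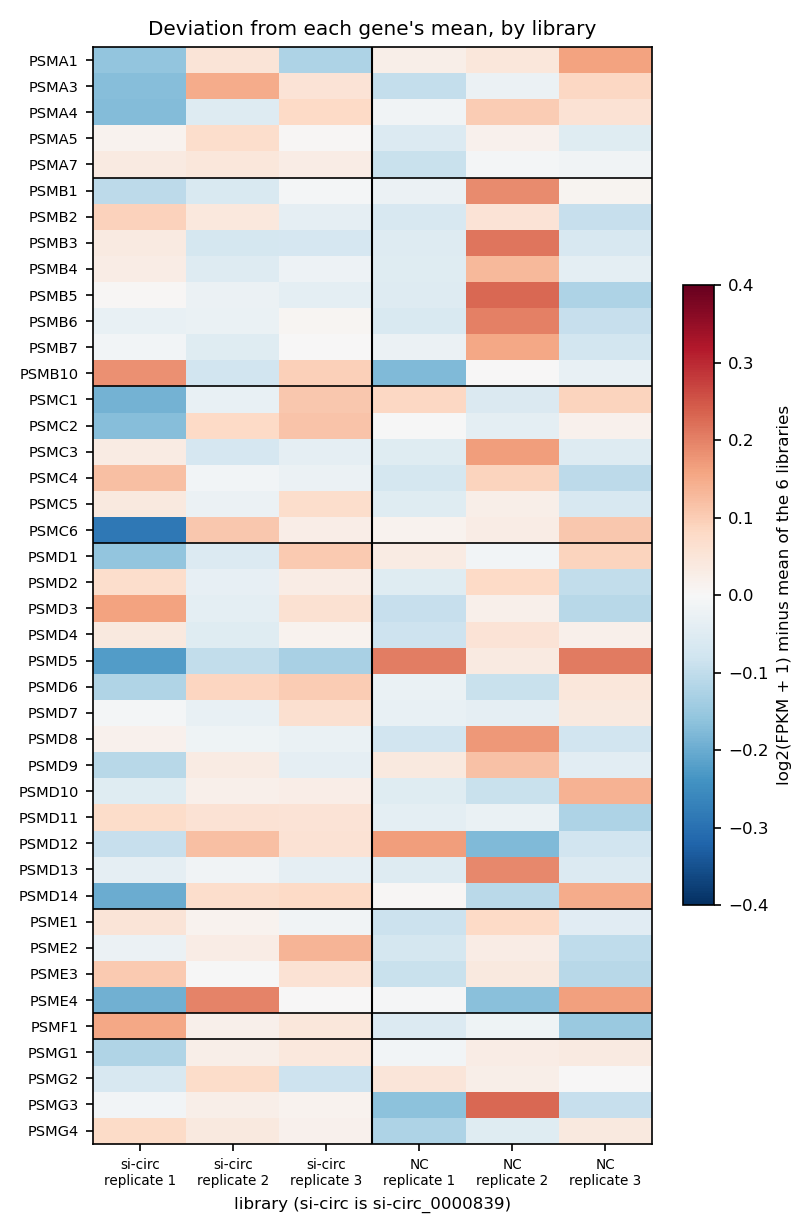
Log2(FPKM + 1) of each tested proteasome gene (rows, by role, separated by lines) minus its mean over the 6 libraries (columns, si-circ_0000839 left of NC); red is above the mean and blue below. Most beta genes are red in NC replicate 2, where the median deviation of the tested beta genes is 0.17, while PSMB10 lies near its mean there. Many alpha and ATPase genes are blue in si-circ_0000839 replicate 1.

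Although core subunits are present in equal copies in the particle, their transcripts were listed at very unequal levels. Among the 44 members above 0 the mean level spanned a 531-fold range. The alpha genes above 0 spanned 476-fold and the beta genes above 0 8.18-fold, of which PSMB1 to PSMB7 lay within 2.92-fold of each other. The deposited gene length is the union of all exons, which exceeded the principal transcript up to 12.4-fold (PSMG4). When levels were rescaled to the length of the principal transcript, the alpha genes above 0 spanned 233-fold and the ATPases 13.7-fold. The beta genes above 0 then spanned 11.6-fold and PSMB1 to PSMB7 alone 3.52-fold. Reads outside the principal transcript stay in the rescaled levels, which are therefore not levels of that transcript.

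Core and cap genes that share many exonic bases with another gene on the same strand had a lower median level than the rest. In 5 genes at least 25% of the principal transcript lay inside exons of another gene on the same strand, namely PSMA6 (81.0%), PSMA1 (53.2%), PSMA2 (52.5%), PSMB10 (45.3%) and PSMD9 (43.8%). Their mean levels were 0.576 to 21.5 FPKM with a median of 2.79, against 4.92 to 306 FPKM with a median of 47.0 for the other 30 core and cap genes above 0. On principal transcript length the ranges were 2.07 to 32.7 FPKM (median 8.81) and 11.1 to 484 FPKM (median 109). The partner genes held few reads, 0 for the partners of PSMA1 and PSMA2, a mean of 1 for that of PSMA6 and 11.8 for that of PSMB10. PSMD9 shared with a partner at a mean of 0.167 reads and with WDR66, at 619 reads. Whether reads in shared exons were left unassigned was not tested, and the levels of these 5 genes are uncertain. Among them PSMB10 is inducible, PSMD9 encodes a chaperone of cap assembly, and a copy covers 72.0% of PSMA6. These traits were not separated from the sharing of exons.

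**Figure D5:**
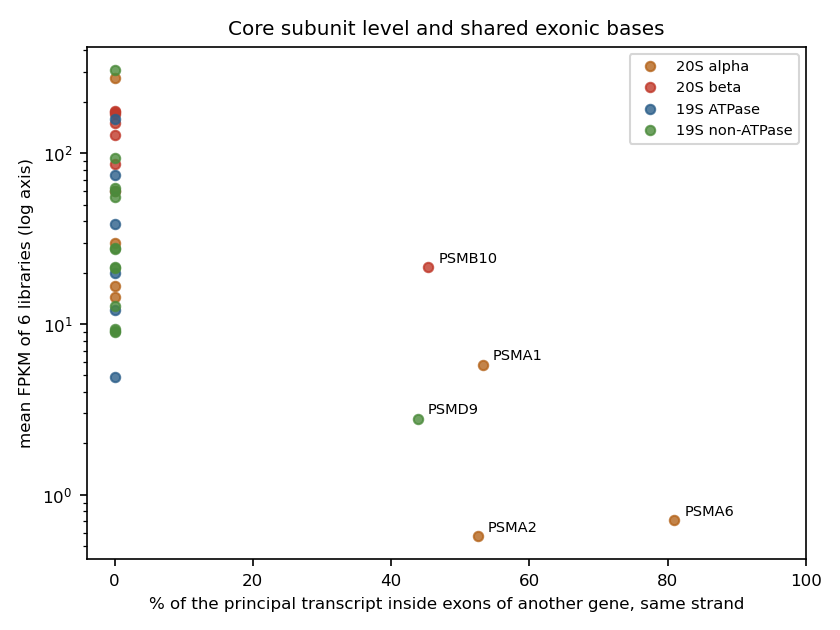
Mean FPKM over the 6 libraries (log axis) against the percentage of the principal transcript that lies inside exons of another gene on the same strand, for the 35 core and cap genes above 0 (points, colored by role). The 5 genes to the right, from PSMD9 at 43.8% to PSMA6 at 81.0%, have a median of 2.79 FPKM, and the other 30 a median of 47.0 FPKM.

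Sequence shared in other ways touched further members. PSMC1 overlaps NRDE2 on the opposite strand over 82.1% of its principal transcript, PSMD7 overlaps a noncoding gene over 50.4% and PSMC5 overlaps FTSJ3 over 27.2%; the strand setting is not given in the sources used here, so reads of these pairs cannot be assigned with certainty. Copies of at least 95% identity covered 92.2% of PSMD4 (PIPSL, a mean of 32 reads), 72.0% of PSMA6 (PSMA6P1, 24.5 reads), 53.5% of PSMC6 and 51.3% of PSME2. Of 32 pseudogenes named after members, 3 had a mean above 1 read. The highest was PSMC1P1 at 57.2 reads, which covered 29.7% of PSMC1. Copies under other names also held reads, with a mean of 29.8 for AC046176.1 (PSMC6) and 17 for AC116347.1 (PSME2).

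A further 47 genes work with the proteasome under other names, and 46 of them were tested, of which 0 were called, beside 0.384% of all genes. Their log2 changes were above 0 for 25 and below 0 for 21, and groups did not overlap for 4 higher and 2 lower genes (13.0% of 46, beside 18.1% of all tested genes). DDI1, a shuttle factor, was at 0 in all libraries. Among cap subunits, the ubiquitin receptor ADRM1 read 149, 128 and 134 FPKM after si-circ_0000839, against 120, 131 and 122 FPKM in NC (log2 change 0.14, limma adjusted p = 0.507). SEM1, a small lid subunit, read 3.20, 3.19 and 3.82 FPKM after si-circ_0000839, against 3.80, 3.91 and 3.94 FPKM in NC (log2 change -0.15, limma adjusted p = 0.489). Both overlapped between groups.

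POMP, the maturation factor of the core, read 71.1, 85.0 and 80.1 FPKM after si-circ_0000839, against 88.4, 85.7 and 89.4 FPKM in NC. Groups did not overlap, and the log2 change was -0.16 (SE 0.08, limma adjusted p = 0.432). AKIRIN2, which carries proteasomes into the nucleus, had a log2 change of 0.06.

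Of 10 genes of transcriptional control, 6 had log2 changes above 0 and 4 below. NFE2L1 read 74.8, 65.2 and 71.1 FPKM after si-circ_0000839, against 58.7, 60.4 and 58.4 FPKM in NC. All si-circ_0000839 libraries were above all NC libraries, with a log2 change of 0.24 (SE 0.07, limma adjusted p = 0.205). Its relative NFE2L2 averaged 8.48 FPKM after si-circ_0000839 and 10.2 in NC, with overlap (log2 change -0.23, limma adjusted p = 0.397). STAT3 was the other gene of this list whose groups did not overlap, at 13.8 ± 0.963 FPKM after si-circ_0000839 and 12.4 ± 0.399 in NC (SD, n = 3 each).

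Among 11 regulators bound to the proteasome, UBLCP1, a nuclear phosphatase that acts on the cap, read 3.75, 3.99 and 3.37 FPKM after si-circ_0000839, against 5.12, 4.69 and 4.97 FPKM in NC. The groups did not overlap (log2 change -0.33, SE 0.08, limma adjusted p = 0.117). The ubiquitin ligases HUWE1 and UBE3C had higher si-circ_0000839 libraries without overlap, with log2 changes of 0.15 and 0.12 and limma adjusted p of 0.429 and 0.494. The deubiquitinases USP14 and UCHL5 had log2 changes of -0.01 and -0.11.

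Shuttle factors, ubiquitin genes and the unfolding machinery were likewise not called. UBQLN1, a shuttle factor that brings ubiquitin-tagged proteins to the proteasome, averaged 13.8 ± 1.33 FPKM after si-circ_0000839 and 15.6 ± 0.862 in NC (SD, n = 3 each). The groups overlapped, and the log2 change was -0.17 (limma adjusted p = 0.419).

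Of the ubiquitin genes, UBB averaged 280 ± 13.3 FPKM after si-circ_0000839 and 276 ± 12.7 in NC. RPS27A, which encodes ubiquitin fused to a ribosomal protein, averaged 218 ± 19.8 FPKM after si-circ_0000839 and 248 ± 24.2 in NC (log2 change -0.19, limma adjusted p = 0.452). UFD1 and NPLOC4, which form the ubiquitin-binding partner of the p97 unfoldase VCP, had log2 changes of -0.09 and 0.07, and VCP itself had -0.01. With library quality weights NFE2L1, UBQLN1, NFE2L2 and UBLCP1 were among the genes of these lists that passed the threshold (limma adjusted p of 0.00234 to 0.0412), where 15.2% of all genes did, and in the other 20 alternatives no gene of these lists did.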

How the data were processed

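The authors deposited 1 table of FPKM with gene lengths, coordinates and biotypes for 58735 genes in 6 libraries, per the file headers. The submitters' processing notes name HISAT2 2.0.5 and featureCounts 1.5.0-p3. Build, strand setting and scaling were not given in the sources used here. All 58735 gene IDs had the same coordinates in GENCODE 29, so GRCh38 is used. FPKM times length gave whole reads for 100% of values above 0, within 0.01, and 18399558 to 19334633 reads per library.

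Groups were compared on log2(FPKM + 1) by limma 3.58.1 (R 4.3.3), with a prior variance that follows the mean level, a two-sided test and group as the only term. Genes averaging 1 FPKM or more over the 6 libraries entered, with Benjamini-Hochberg adjustment over 10674 genes and a threshold of 0.05. The test was also run on simulated reads. These lacked the GC and length shifts of single libraries seen here, so that run does not cover such shifts. FPKM are not counts, so voom on the recovered reads was an alternative. There were 21 alternatives, 1 of them added after the data were seen. Copies were found with blastn 2.17.0 (at least 95% identity over 100 bases); summaries used Python 3.11.15, pandas 2.3.3 and scipy 1.17.1, and figures matplotlib 3.10.9. Promoters came from RefSeq (GRCh38.p14).

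Members and lists were chosen with earlier results of these data known. Values per library are given for the catalytic genes and PSMB10, for the highest, lowest and smallest-p gene of each role, and for the 5 smallest p in each direction. Other genes were named after their values were seen. Of each other list the smallest p in each direction is named; a few genes that these rules and lists take are not reported here.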

Additional observations from a re-analysis of the deposited data

How the results depend on the processing

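The absence of called proteasome genes held in 19 of 21 alternatives. With library quality weights 3 members were called and 874 genes were higher and 749 lower over the whole table, the weights being 5.36 for si-circ_0000839 replicate 3 and 0.235 for NC replicate 2. With the trend on GC content and length removed 1 member was called, among 93 higher and 105 lower genes. The count of higher genes, 14, became 1 with no filter, 33 with a minimum of 5 FPKM, 29 after quantile normalization, 32 as TPM, 48 with voom, 51 in protein-coding genes alone and 9 with 2 libraries left out (si-circ_0000839 replicate 1 and NC replicate 2). The count of lower genes, 27, became 3 with no filter, 34 after quantile normalization, 23 as TPM, 74 in protein-coding genes alone and 11 with the 2 libraries left out. Leaving out 1 library gave 5 to 18 higher genes, 15 to 19 lower genes, 0 called members in each fit and a median member change of -0.03086 to 0.02803, the lowest without NC replicate 1. The median was 0.04967 with the 2 libraries left out. The cause of these shifts was not tested. With the replicate block 10 genes were higher, 25 lower and 0 members called. Deviations of same-numbered libraries from their group means had correlations of -0.149, -0.289 and 0.150, and those of other pairs ran from -0.305 to 0.353. Shifts of single libraries enter these values, so they cannot decide whether the numbers pair the libraries. Of 750 values of 36 named genes under the alternatives, 742 missed the threshold as in the main test and 8 passed it; no named gene was called in the main test, so no call could be lost. In all, 28 values of 14 uncalled genes turned sign. With 3 libraries a group, the interval of a member's change had a median half-width of 0.17 on the log2 scale. The interval is for each gene alone, and the threshold on adjusted p is stricter. PSMD5, at a log2 change of -0.30, did not pass it, so changes larger than this half-width could go uncalled.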
